A study of Mus musculus with 16 samples.

Results

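Small intestinal organoids with and without epithelial Atg16l1 were examined for 9 genes: the fucosyltransferase genes Fut2, Fut4 and Fut8, the GDP-fucose genes Gmds and Slc35c1, and the transmembrane mucin genes Muc1, Muc3, Muc4 and Muc13. The genes were chosen as a list of symbols, with earlier results of these data known. Each was matched to its row by Ensembl identifier, and they make up 9 of the 49585 genes in the deposited table. Positions given below are of GRCm38, from the GENCODE annotation. Of the 9, 8 passed the filter on low counts and were among the 12559 genes tested, whereas Muc1 did not.

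Organoids are epithelial cultures grown from intestinal crypts. RNA sequencing was performed on 16 cultures from C57BL/6 mice aged 8–12 wk, in 4 groups of 4. Atg16l1 fl/fl organoids carry floxed Atg16l1 alleles and no Cre, and Atg16l1 ΔIEC organoids carry the same alleles with Cre under the villin promoter, which is active in intestinal epithelial cells. Each genotype was left untreated or stimulated with recombinant IL-22 at 10 ng/ml for 24 h. The labels give 2 organoid lines per genotype, each with 2 cultures per treatment, so that n = 4 stands for cultures of 2 lines and the p-values below measure the spread between such cultures. The labels do not say whether each line comes from a separate mouse. In the values below, the first and second culture of a group come from its first line, and the other two from its second line.

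Fucose is a sugar that epithelial cells attach to the ends or the core of glycans. It is first activated to GDP-fucose in the cytosol, carried into the Golgi, and then transferred by fucosyltransferases, each of which makes its own linkage. Transmembrane mucins are long, densely glycosylated proteins anchored in the apical membrane, where they form the glycocalyx of the gut epithelium and can carry fucosylated glycans. IL-22 acts on epithelial cells through a receptor that signals mainly through STAT3, and it is known for inducing antimicrobial proteins and epithelial fucosylation in the small intestine.

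STAT factors bind palindromes of the form TTCNNNGAA, which read the same on both strands, and the 250 bases before each RefSeq start were searched for these letters. The RefSeq table held 8 of the 9 genes, with 13 starts in all, and had no entry for Fut2. Muc13, with 2 starts in the table, was the 1 gene with a match, in the window of its first start and not in that of its second (chr16:33794239-33794488). The window with the match is shown beside those of Muc4, on the same chromosome, and Muc3, which moved with Muc13 in the comparisons below. Coordinates are of GRCm38.p6, the windows run 5′ to 3′ on the strand of the gene, and capitals mark the match, chr16:33793897-33793905, which begins 140 bases before the start.
Muc13, chr16:33793787-33794036, plus strand: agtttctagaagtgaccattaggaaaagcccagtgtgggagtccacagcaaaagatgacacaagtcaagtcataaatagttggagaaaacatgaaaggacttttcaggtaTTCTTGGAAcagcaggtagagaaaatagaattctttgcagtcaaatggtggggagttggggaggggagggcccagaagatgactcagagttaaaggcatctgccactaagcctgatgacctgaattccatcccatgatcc
Muc4, chr16:32735636-32735885, plus strand: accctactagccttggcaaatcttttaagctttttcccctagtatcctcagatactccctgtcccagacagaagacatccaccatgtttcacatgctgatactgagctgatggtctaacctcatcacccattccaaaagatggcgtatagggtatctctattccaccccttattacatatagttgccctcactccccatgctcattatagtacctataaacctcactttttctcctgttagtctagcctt
Muc3, chr5:137166047-137166296, minus strand: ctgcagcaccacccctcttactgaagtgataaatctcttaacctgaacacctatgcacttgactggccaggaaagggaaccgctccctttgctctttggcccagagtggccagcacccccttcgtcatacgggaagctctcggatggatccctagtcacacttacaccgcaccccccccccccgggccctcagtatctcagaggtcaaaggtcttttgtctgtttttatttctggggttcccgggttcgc
Of the 32851 RefSeq promoter windows of this length, 7.02% hold the letters, and 8.13% of the 27025 genes hold them in at least 1 window. A match in 1 of 8 genes is thus near what these shares give. A match describes the sequence only, and the windows without one say nothing of STAT binding elsewhere at these genes.

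Counts on genes ranged from 2135000 to 5574860 per culture, so that 3 counts correspond to between 0.561 and 1.35 CPM. CPM here is the count of a gene over the total counts on genes of its culture after scaling of that total by its TMM factor. In Atg16l1 ΔIEC organoids, Atg16l1 was at 2.67 ± 1.20 CPM (SD, n = 4) untreated and 1.84 ± 2.76 with IL-22, against 40.2 ± 7.25 and 45.0 ± 6.33 in fl/fl organoids. The treated ΔIEC mean came mostly from the second culture, with 21 counts (5.97 CPM), where the others had 2, 1 and 1. The known IL-22 target Reg3b, an antimicrobial lectin, went from 12.8 to 19160.0 CPM in fl/fl and from 11.2 to 26820.0 CPM in ΔIEC organoids. Of the epithelial marker lists, each of the 10 goblet cell and 12 enterocyte markers had counts, whereas 7 of 10 immune and 9 of 10 stromal markers had at most 3 counts in every culture. In such bulk samples, fewer cells of a type and less RNA per cell cannot be told apart.

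IL-22 raised 6 of the 8 tested genes in each genotype (Fut2, Slc35c1, Gmds, Muc3, Muc4 and Muc13), by 1.31- to 80.9-fold in fl/fl and 1.43- to 315-fold in ΔIEC organoids (edgeR's quasi-likelihood test, Benjamini-Hochberg adjusted p under 0.01). None of the 8 was called lower. Over all genes tested, 10.6% were called higher and 10.2% lower in fl/fl organoids (20.8% in either direction), and 9.83% higher and 7.65% lower in ΔIEC organoids (17.5%). The median log2 fold change of the 8 genes was 1.05 in fl/fl and 0.88 in ΔIEC organoids, beside -0.05 and -0.01 over all genes tested. Because the genes were chosen with earlier results of these data known, these counts and medians describe them and do not test the family. Fut4 and Fut8 were not called in either genotype. The groups did not overlap in fl/fl organoids for these 6 genes and for Fut8, where 15.4% of all genes tested were higher without overlap, and the same held in ΔIEC organoids, where 14.1% were.

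**Figure D1:**
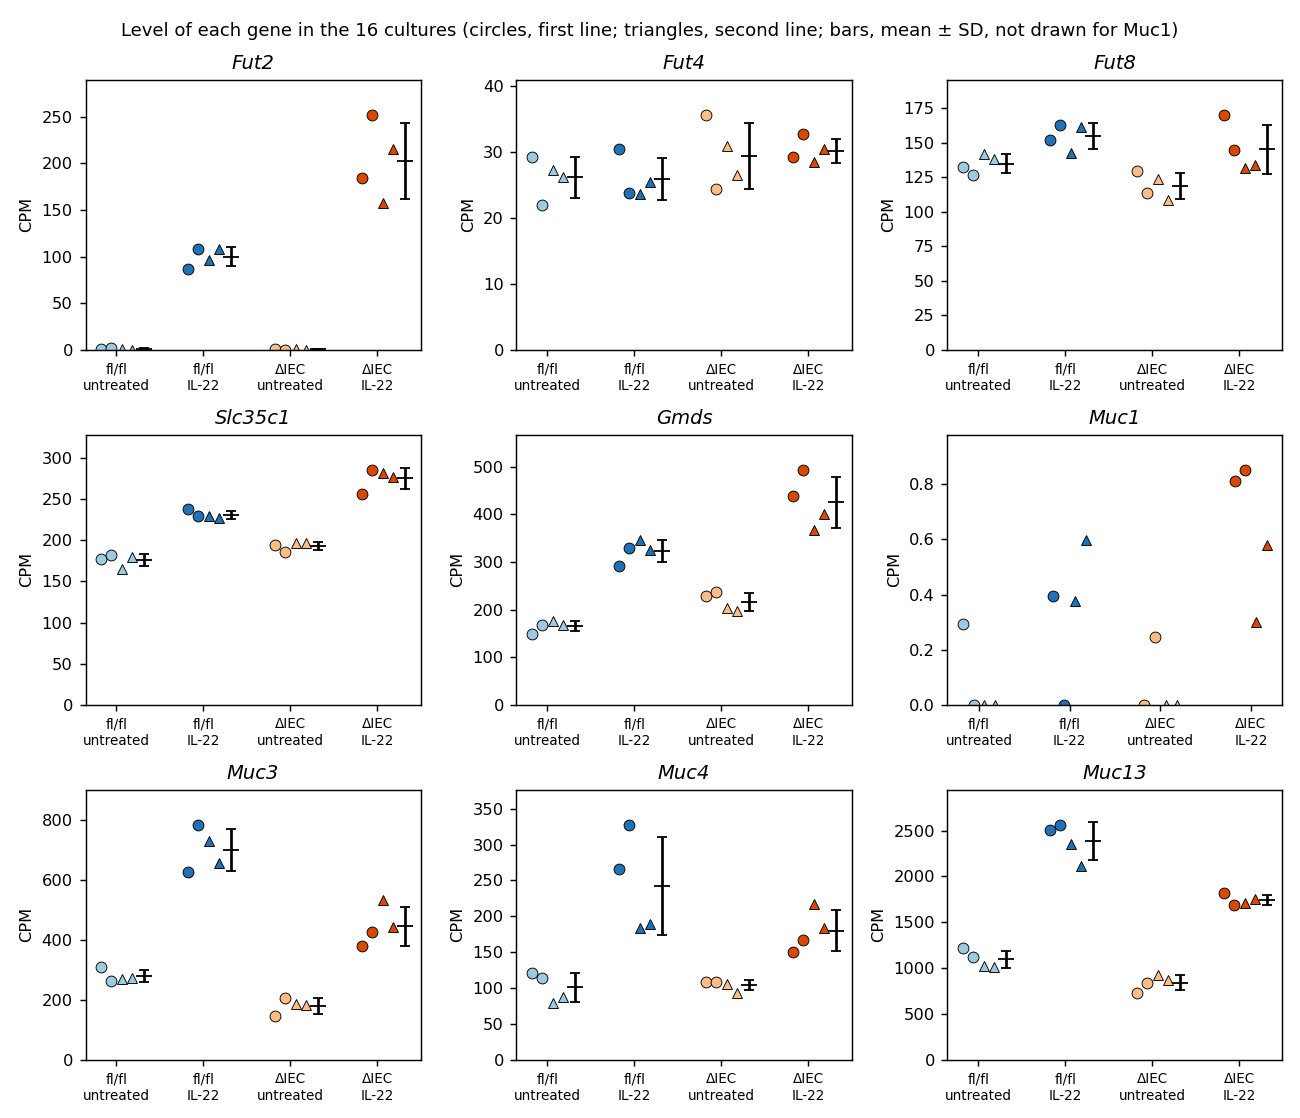
Level of each of the 9 genes in CPM (linear y axis from 0) in the 16 cultures, by group on the x axis. Circles are cultures of the first line, triangles of the second, and bars show mean ± SD (n = 4); Muc1, with at most 3 counts in any culture, has no bar. Fut2 lies between 0 and 1.79 CPM in untreated and between 87.1 and 252 CPM in IL-22–treated cultures.

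Fut2 (ENSMUSG00000055978.5, chr7:45648591-45666394, minus strand), which adds fucose in an α1,2 linkage to terminal galactose and so makes the H antigen of gut epithelium, was close to undetected without IL-22. Untreated fl/fl cultures had 5, 7, 3 and 1 counts (1.46, 1.79, 1.36 and 0.268 CPM), and untreated ΔIEC cultures had 4, 0, 3 and 1 counts (0.943, 0, 1.21 and 0.415 CPM). With IL-22, the level was 87.1, 108.4, 96.9 and 108.2 CPM in fl/fl and 184.7, 252, 158 and 216 CPM in ΔIEC cultures. Each treated culture was thus above each untreated one, and each treated ΔIEC culture was above each treated fl/fl culture.

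The log2 fold change of Fut2 with IL-22 was 6.34 (SE 0.273, adjusted p = 1.43e-12, edgeR) in fl/fl and 8.30 (SE 0.288, adjusted p = 7.33e-14) in ΔIEC organoids. These were the 9th and 6th highest of the 12559 genes tested. The untreated reference rests on 16 counts in all in fl/fl organoids and 8 in ΔIEC. Each SE of these fold changes comes from the F statistic and understates the uncertainty of so small a reference. That uncertainty is at least as wide as the counting intervals that follow. The ratio of the pooled CPM was 83.8 in fl/fl (exact 95% interval 51.5–147, counting error only) and 338 in ΔIEC organoids (171–784). The fold changes differed between genotypes by 1.96 on the log2 scale (SE 0.736), which did not pass the threshold (unadjusted p = 0.0150, adjusted p = 0.539, edgeR). This difference ranged from 1.11 without the first fl/fl line to 2.42 without the second, with adjusted p of 0.328 to 0.979 over all cultures and lines left out.

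Between genotypes, Fut2 differed with IL-22 and not detectably without it. In treated organoids, mean Fut2 was 202.6 ± 40.6 CPM in ΔIEC against 100.1 ± 10.2 in fl/fl (SD, n = 4), a log2 difference of 1.01 (SE 0.142, adjusted p = 3.62e-05, edgeR). It was past the threshold with each culture and each line left out in turn, at log2 differences of 0.89 to 1.12. In untreated organoids the log2 difference was -0.95 (SE 0.714, adjusted p = 0.370), and the pooled counts of 8 against 16 gave a ratio of 0.504 with an exact 95% interval of 0.187 to 1.25, so that a difference was not detectable at this depth.

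Fut4 (ENSMUSG00000049307.6, chr9:14748320-14752393, minus strand), which makes the α1,3 linkage of Lewis X-type glycans, was low and level in the 4 groups. Its mean in fl/fl organoids was 26.2 ± 3.06 CPM untreated and 25.9 ± 3.19 CPM treated, and in ΔIEC organoids 29.4 ± 4.97 CPM untreated and 30.2 ± 1.86 CPM treated (SD, n = 4), and groups next to each other in level overlapped. With IL-22, its log2 fold change was -0.03 (2 SE to either side, -0.29 to 0.24) in fl/fl and 0.04 (-0.23 to 0.30) in ΔIEC organoids, and its sign turned in either genotype when single cultures were left out. Against fl/fl, ΔIEC organoids differed by 0.18 (adjusted p = 0.362) untreated and 0.24 (adjusted p = 0.166) treated, neither past the threshold.

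Fut8 (ENSMUSG00000021065.15, chr12:77238125-77476338, plus strand), the enzyme that adds core fucose to N-glycans, had small differences that did not pass the threshold. Untreated fl/fl cultures were at 132.7, 126.8, 141.9 and 138.3 CPM and treated ones at 152, 163.1, 142.5 and 161.2 CPM. Untreated ΔIEC cultures were at 129.2, 113.7, 123.4 and 108.4 CPM and treated ones at 170.1, 144.9, 131.8 and 133.7 CPM. Treated and untreated cultures did not overlap in either genotype.
The IL-22 effect on Fut8 was 0.20 on the log2 scale (SE 0.0854, adjusted p = 0.0831, edgeR) in fl/fl and 0.28 (SE 0.0867, adjusted p = 0.0185) in ΔIEC organoids. With organoid line as a block, the latter passed (adjusted p = 0.00349), as it did with limma-voom (adjusted p = 0.00748). With the cultures of a line summed it had an adjusted p of 0.138, and without the first ΔIEC line one of 0.237. The genotype differences of Fut8 were -0.18 (adjusted p = 0.147) untreated and -0.10 (adjusted p = 0.414) treated. Exons of the gene 9530018F02Rik overlap those of Fut8 on the opposite strand.

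Levels per exon length show how the makeup of these 3 transferase transcripts shifted. In CPM per kb of exon, Fut2 made up 0.958% ± 0.547 of the sum of Fut2, Fut4 and Fut8 in untreated fl/fl and 0.503% ± 0.409 in untreated ΔIEC organoids. With IL-22 its share was 41.5% ± 2.67 and 58.8% ± 4.80 (SD, n = 4). Fut8 held 72.0% and 67.4% of the sum without IL-22, and 44.1% and 29.4% with it. The sum itself went from 23.7 ± 1.35 to 44.4 ± 2.52 CPM per kb in fl/fl and from 22.4 ± 2.43 to 63.1 ± 8.21 CPM per kb in ΔIEC organoids.

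Gmds (ENSMUSG00000038372.13, chr13:31819579-32338740, minus strand), GDP-mannose 4,6-dehydratase, which catalyzes the first step from GDP-mannose to GDP-fucose, rose by the same log2 fold change of 0.97 in both genotypes. It was at 149.6, 166.9, 175 and 168.3 CPM in untreated and 292, 329.5, 347 and 325 CPM in treated fl/fl cultures. ΔIEC cultures were at 228.5, 236, 204 and 197.7 CPM untreated and 439, 493, 366 and 402 CPM treated. The groups separated completely, in the order untreated fl/fl, untreated ΔIEC, treated fl/fl and treated ΔIEC.
The IL-22 effect had an SE of 0.0924 in fl/fl (adjusted p = 1.70e-07, edgeR) and 0.0914 in ΔIEC organoids (adjusted p = 1.42e-07). Gmds was 1.32-fold higher in untreated ΔIEC than in untreated fl/fl organoids (log2 difference 0.40, SE 0.0929, adjusted p = 0.00525) and 1.31-fold higher with IL-22 (0.39, SE 0.0898, adjusted p = 0.00255). The genotype differences of Gmds depended on the first line of each genotype: without the first ΔIEC line they were 0.28 (adjusted p = 0.0640) untreated and 0.24 (adjusted p = 0.0679) treated, and without the first fl/fl line 0.34 (adjusted p = 0.0652) and 0.31 (adjusted p = 0.0405). The untreated call was also lost without any of the ΔIEC cultures 1 and 2 or the fl/fl cultures 1, 2 and 4 (adjusted p = 0.0102 to 0.0238), and the treated call without ΔIEC culture 2 (0.0139) or fl/fl culture 1 (0.0110).

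Slc35c1 (ENSMUSG00000049922.8, chr2:92452764-92460538, minus strand), the GDP-fucose transporter of the Golgi, showed a smaller rise. Its levels were 176.8, 182, 165 and 180.0 CPM in untreated fl/fl, 238, 229.5, 229 and 226.5 CPM in treated fl/fl, 194.5, 186, 196.2 and 196.5 CPM in untreated ΔIEC and 256, 285.5, 281 and 277 CPM in treated ΔIEC cultures. No 2 groups overlapped. Slc35c1 had a log2 fold change with IL-22 of 0.39 (SE 0.0620, adjusted p = 8.02e-05, edgeR) in fl/fl and 0.51 (SE 0.0619, adjusted p = 3.54e-06) in ΔIEC organoids.
Between genotypes, Slc35c1 was 1.19-fold higher in treated ΔIEC organoids (log2 difference 0.25, SE 0.0613, adjusted p = 0.00361), a call that was lost without any 1 of the 4 lines (adjusted p = 0.0172 to 0.0690), or without any of the treated ΔIEC cultures 2 and 4 or fl/fl cultures 2, 3 and 4 (adjusted p = 0.0108 to 0.0138). The untreated difference was 0.13 (adjusted p = 0.140).

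**Figure D2:**
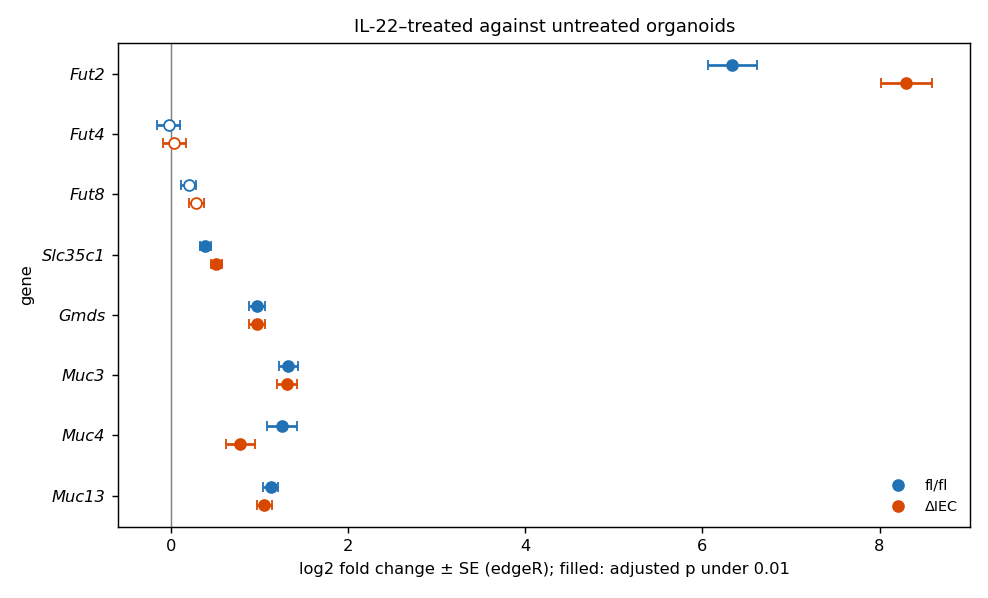
Log2 fold change with IL-22 (x axis) of the 8 tested genes (y axis) in fl/fl and ΔIEC organoids, with bars of 1 SE to either side; filled points passed the threshold (adjusted p under 0.01, edgeR) and open points did not. Fut2 stands at 6.34 and 8.30, the other called genes lie between 0.39 and 1.33, and Fut4 lies at -0.03 and 0.04. The bars of Fut2 understate its uncertainty, because its untreated reference rests on few counts.

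All 3 tested transmembrane mucins, Muc3, Muc4 and Muc13, rose with IL-22 in both genotypes, by 2.18- to 2.51-fold in fl/fl and 1.72- to 2.49-fold in ΔIEC organoids. Muc3 and Muc13 were at the same time lower in ΔIEC than in fl/fl organoids with either treatment. Muc1 (ENSMUSG00000042784.9, chr3:89229057-89233381, plus strand), a mucin of many glandular epithelia, had 0 to 3 counts in every culture, with sums of 1, 5, 1 and 8 counts in untreated fl/fl, treated fl/fl, untreated ΔIEC and treated ΔIEC organoids. It was at or under the floor of 3 counts throughout, and no fold change is given.

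Muc13 (ENSMUSG00000022824.12, chr16:33794037-33819934, plus strand), a mucin of enterocytes and goblet cells, had the highest level per exon length of the 4 in each group. Untreated fl/fl cultures were at 1219, 1123, 1022 and 1010.0 CPM and treated ones at 2509, 2563, 2357 and 2108 CPM. Untreated ΔIEC cultures were at 729.7, 837, 922 and 872 CPM and treated ones at 1815, 1688, 1707 and 1755 CPM. No culture of a group reached into another group.
With IL-22, Muc13 changed by a log2 fold of 1.12 (SE 0.0855, adjusted p = 8.60e-09, edgeR) in fl/fl and 1.05 (SE 0.0856, adjusted p = 2.01e-08) in ΔIEC organoids. Muc13 was lower in ΔIEC than in fl/fl organoids, by -0.38 (SE 0.0850, adjusted p = 0.00379) untreated and -0.45 (SE 0.0845, adjusted p = 4.80e-04) with IL-22. With the cultures of a line summed, neither difference was past the threshold (adjusted p = 0.123 and 0.0414, edgeR). The untreated difference was lost without the first fl/fl line (-0.28, adjusted p = 0.0520) and without either ΔIEC line (-0.29, adjusted p = 0.0777, and -0.46, adjusted p = 0.0109), as well as without any 1 culture of the first line of either genotype (adjusted p = 0.0128 to 0.0204). Exons of the antisense gene Gm15657 overlap those of Muc13 on the opposite strand, and reads of the pair can be told apart only where counting used strand, which the sources used here do not give.

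Muc3 (ENSMUSG00000037390.12, chr5:137134922-137149322, minus strand), whose product carries a SEA domain and is a main glycocalyx mucin of enterocytes, had the largest log2 difference between genotypes among the 3 mucins. Its values were 310.0, 264, 269 and 272 CPM in untreated and 628, 783, 729 and 657 CPM in treated fl/fl cultures. ΔIEC cultures were at 144, 206, 184.6 and 182 CPM untreated and 379, 425.5, 533 and 442 CPM treated. All 4 groups were separate.
The log2 fold change with IL-22 was 1.33 (SE 0.111, adjusted p = 3.11e-08, edgeR) in fl/fl and 1.31 (SE 0.113, adjusted p = 4.25e-08) in ΔIEC organoids. Against fl/fl, ΔIEC organoids differed by -0.64 (SE 0.113, adjusted p = 6.78e-04) untreated and by -0.65 (SE 0.109, adjusted p = 1.94e-04) treated, so that fl/fl organoids had 1.56- and 1.57-fold more. Both differences were past the threshold with each culture and each line left out, but not with the cultures of a line summed (adjusted p = 0.0303 and 0.0119). The GENCODE model of Muc3 used here has 1943 bases of exon and starts 16724 bases downstream of the RefSeq start of its window above. The annotation that the authors counted on is not given in the sources used here, so this exon length, and with it the level of Muc3 per exon length, is assumed. Muc3a, a neighboring gene of the same family, moved in the same directions at lower levels, from 21.2 to 55.8 CPM in fl/fl and from 7.32 to 23.0 CPM in ΔIEC organoids, and how reads common to such relatives were divided is uncertain.

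Muc4 (ENSMUSG00000079620.13, chr16:32735886-32782391, plus strand), a very large mucin with EGF-like domains that pairs with ErbB receptors, had lines that stood apart in fl/fl organoids. Untreated fl/fl cultures were at 121.3, 114.6, 79.8 and 87.5 CPM and treated ones at 265.7, 328, 184 and 189 CPM. Untreated ΔIEC cultures were at 109, 108.8, 106 and 93.5 CPM and treated ones at 150.3, 167, 217.6 and 184 CPM. Treated and untreated cultures were separate within a genotype, the genotypes overlapped with either treatment, and the first fl/fl line was above the second with either treatment.
The IL-22 effect on Muc4 was 1.25 on the log2 scale (SE 0.167, adjusted p = 1.20e-05, edgeR) in fl/fl and 0.78 (SE 0.168, adjusted p = 0.00142) in ΔIEC organoids. In ΔIEC organoids the rise was 0.51 (adjusted p = 0.188) without the second line and 1.01 (adjusted p = 0.0117) without the first. The difference of the IL-22 effects was -0.47 (SE 0.236, unadjusted p = 0.0614, adjusted p = 0.714) and was not called in any setting. It ranged from -0.76 to -0.24 over the cultures and lines left out. Between treated organoids the log2 difference of Muc4 was -0.42 (adjusted p = 0.0506), and without the second fl/fl line it was -0.72 (adjusted p = 3.26e-04), but without the first it was -0.08 (adjusted p = 0.667), and summing the cultures of each line gave an adjusted p of 0.246. It passed without the filter on low counts (-0.40, adjusted p = 4.49e-04). Untreated, the genotypes differed by 0.05 (adjusted p = 0.885). Exons of Muc4 overlap those of Muc20 on the opposite strand.

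**Figure D3:**
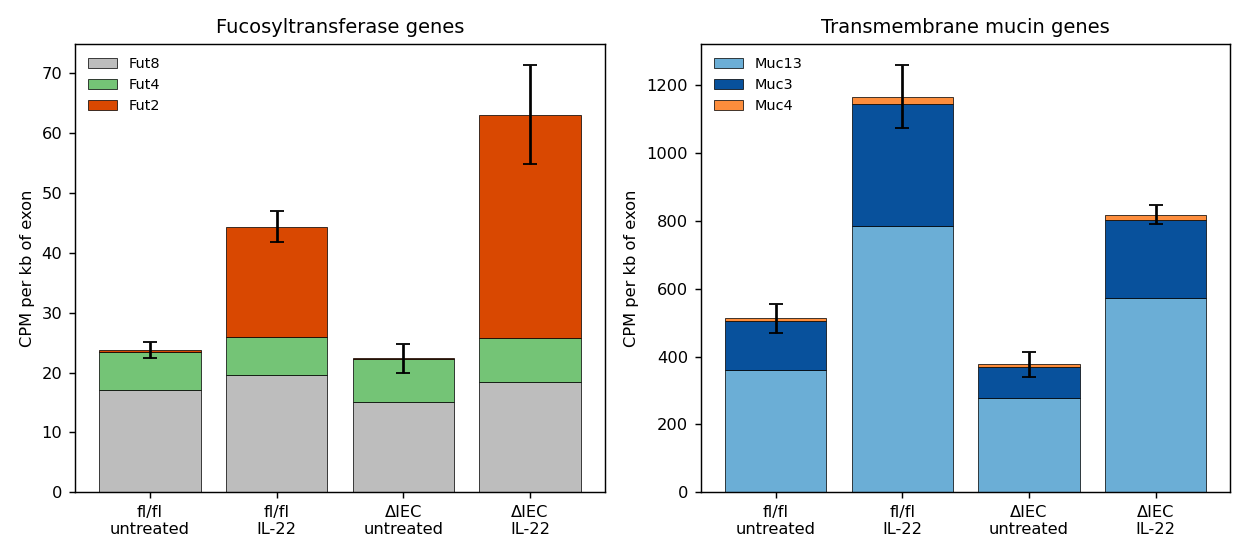
Mean level per exon length (CPM per kb of exon, linear y axis from 0, n = 4) in the 4 groups on the x axis, stacked for Fut8, Fut4 and Fut2 in the left panel and Muc13, Muc3 and Muc4 in the right one (Muc1 is too low to draw), with the SD of the sum. The transferase sum reaches 44.4 in treated fl/fl and 63.1 in treated ΔIEC organoids, and the mucin sum 1165 and 818.

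Per exon length, the 4 mucins together were at 512 ± 42.7 CPM per kb in untreated fl/fl and 378 ± 36.9 in untreated ΔIEC organoids, and at 1165 ± 92.5 and 818 ± 28.0 with IL-22 (SD, n = 4). Muc13 made up 70.3%, 67.3%, 73.2% and 70.2% of this sum in untreated fl/fl, treated fl/fl, untreated ΔIEC and treated ΔIEC organoids, Muc3 between 24.4% and 30.9%, and Muc4 between 1.66% and 2.37%. Treated and untreated cultures did not overlap in the sum in either genotype, while the group means of the Muc13 share stayed within 67.3% to 73.2%.

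Whether the IL-22 effect differed between genotypes was tested directly. None of the 8 genes was called (edgeR), 1 of the 8 (Fut2) had an unadjusted p under 0.05, limma-voom also called 0, and DESeq2 called 0 of the 6 with an adjusted p, which it did not give for Fut2 and Fut4. Over all genes tested, 0.0159% were called. For Gmds, Muc3 and Muc13 the differences were -0.0047, -0.01 and -0.07 on the log2 scale, with 2 SE to either side spanning -0.26 to 0.25, -0.33 to 0.30 and -0.31 to 0.17. For Slc35c1 the difference was 0.12 (-0.05 to 0.30), and for Fut4 and Fut8 it was 0.06 and 0.09.

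The genotype comparison had genes on both sides. In untreated organoids, 3 of the 8 genes were called, Gmds higher and Muc3 and Muc13 lower in ΔIEC organoids, beside 9.76% of all genes tested in either direction (3.78% higher and 5.98% lower). With IL-22, 5 of the 8 were called, beside 19.8% of all genes tested (9.91% higher and 9.84% lower): Fut2, Gmds and Slc35c1 were higher and Muc3 and Muc13 lower. Groups did not overlap for 4 of the 8 genes untreated (Gmds, Slc35c1, Muc3 and Muc13), beside 23.3% of all genes tested, and for these and Fut2 with IL-22, beside 29.6%. The 2 genotype comparisons share no cultures but share lines. Their median over the 8 genes was -0.07 untreated and 0.07 treated, beside -0.02 and 0.01 over all genes. Lines are nested in genotype, 2 in each, so genotype differences cannot be fully told apart from differences between lines. With the cultures of a line summed, 0 of the 3 untreated calls were left. Of the 5 treated calls, 1 was left, that of Fut2 (adjusted p = 0.00735, edgeR).

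**Figure D4:**
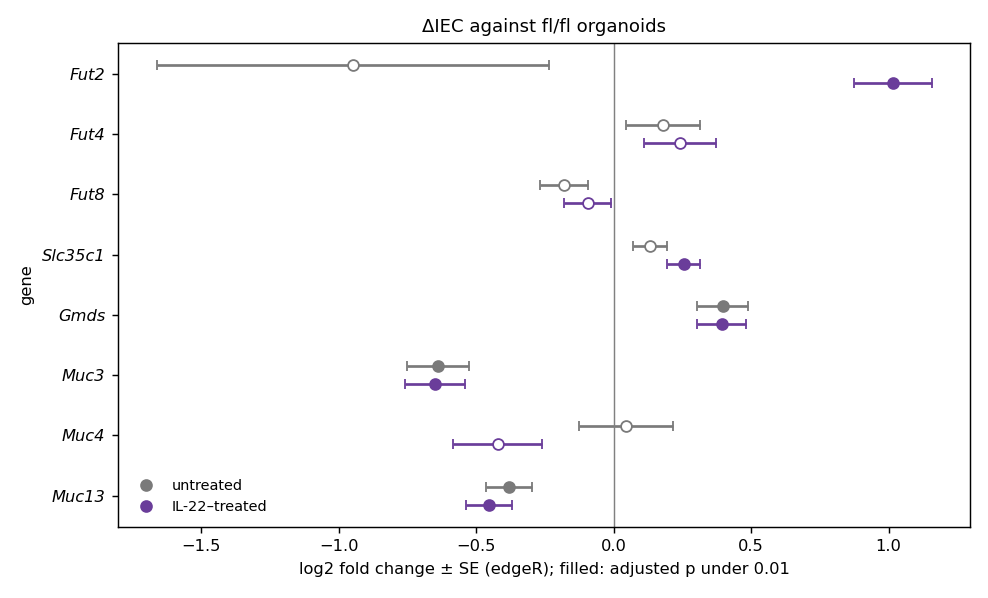
Log2 difference of ΔIEC against fl/fl (x axis) for the 8 tested genes (y axis) in untreated and IL-22–treated organoids, with bars of 1 SE to either side; filled points passed the threshold (adjusted p under 0.01, edgeR). Muc3 and Muc13 lie left of 0 with either treatment, Gmds lies right of 0 at 0.40 and 0.39, and Fut2 lies at -0.95 (open, with the widest bar) and 1.01.

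Some cell type markers moved with these comparisons, for which the shares of all genes called are given above. The summed level of the 10 goblet cell markers ranged from 2157 to 3388 CPM in untreated fl/fl and 1529 to 2036 in untreated ΔIEC cultures, and from 2082 to 3094 and 1068 to 1741 with IL-22. Of the 10, 5 were called lower in ΔIEC organoids untreated and 7 with IL-22, none higher. Against untreated organoids, IL-22 gave 3 called higher and 1 lower in fl/fl, and 2 higher and 2 lower in ΔIEC organoids. Of the 9 Paneth cell markers tested, 6 were called lower in untreated and 7 in treated ΔIEC organoids, and none higher. Against untreated organoids, 2 of them were called higher with IL-22 in each genotype and none lower. With IL-22, the 12 enterocyte markers went from 6496–7712 to 2473–2781 CPM in fl/fl and from 6077–8094 to 2186–3994 CPM in ΔIEC organoids, with 9 and 6 called lower. Between genotypes, 4 of them were called higher in treated ΔIEC organoids, and 1 higher and 1 lower untreated. The 10 stem cell markers went in sum from 2145–2542 to 1548–1839 CPM in fl/fl and from 2677–2958 to 1614–1940 CPM in ΔIEC organoids with IL-22, with 4 and 7 called lower and 1 called higher in each. Against fl/fl, 3 of them were called higher and none lower in untreated ΔIEC organoids, and 3 higher and 2 lower in treated ones. Of the 10 enteroendocrine markers, 2 were called lower in untreated and 4 in treated ΔIEC organoids. The part of these shifts in the mucin and transferase results was not tested.

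The other genes of GDP-fucose synthesis and transport moved less uniformly. Like the genes above, this list and those below were chosen with earlier results of these data known. Of 9 tested genes beside Gmds and Slc35c1, 3 were called higher and 1 lower in fl/fl, and 4 higher and 1 lower in ΔIEC organoids. Over all genes tested, 10.6% were called higher and 10.2% lower in fl/fl, and 9.83% and 7.65% in ΔIEC organoids. The 4 calls in fl/fl organoids went down to 2 without 1 of 3 single cultures, to 1 without the first fl/fl line and to 0 without the second, and the 5 in ΔIEC organoids to 3 without the first ΔIEC line. Those called higher in both act upstream of GDP-mannose, the precursor of GDP-fucose. Mpi, phosphomannose isomerase, rose by 0.45 and 0.72 on the log2 scale (fl/fl and ΔIEC), Gmppb, the catalytic subunit of GDP-mannose pyrophosphorylase, by 0.45 and 0.73, and its regulatory relative Gmppa by 0.39 and 0.70. Pmm1, a phosphomannomutase of the same path, fell by 0.67 and 0.69, whereas its relative Pmm2 was at 0.19 (adjusted p = 0.223) in fl/fl and rose by 0.57 (adjusted p = 9.09e-04, edgeR) in ΔIEC organoids. The calls of Pmm1 were lost in 7 and 6 of the 10 fits with a culture or line left out, and without the first ΔIEC line its log2 fold change was -0.32 (adjusted p = 0.413). Tsta3, the enzyme after Gmds, was at 0.12 in both genotypes and was not called. The salvage enzymes Fuk (-0.21 and -0.16) and Fpgt (0.13 and 0.09) were not called.

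Among the 4 other fucosyltransferase genes tested, 1 was called higher and 1 lower in each genotype, beside the shares of all genes tested given above. Fut1, an α1,2-fucosyltransferase like Fut2, rose from 11.0 to 24.7 CPM in fl/fl (log2 fold change 1.14, SE 0.169, adjusted p = 3.94e-05, edgeR) and from 6.66 to 16.7 CPM in ΔIEC organoids (1.39, SE 0.198, adjusted p = 2.34e-05). Between genotypes, Fut1 was lower in ΔIEC organoids, unlike Fut2 with IL-22. The log2 difference was -0.81 (adjusted p = 0.00958, edgeR) untreated and -0.56 (adjusted p = 0.0114, not called) treated. Pofut1, which adds O-fucose to EGF repeats such as those of Notch, fell with IL-22 by 0.71 on the log2 scale in both genotypes (adjusted p = 2.50e-06 and 2.86e-06). The lysosomal fucosidase Fuca1 was at 0.28 in fl/fl (adjusted p = 0.0634) and rose by 0.42 in ΔIEC organoids (adjusted p = 0.00932), while Fuca2 fell by 0.33 and 0.51. The Fuca1 call in ΔIEC organoids was lost in 9 of the 10 fits with a culture or line left out (adjusted p up to 0.149) and the Fuca2 call in fl/fl organoids in 8 of 10 (up to 0.196).

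Mucins and mucin glycan enzymes outside the 9 genes were also measured. Of the 2 other transmembrane mucins tested, Muc3a rose in both genotypes (1.41 and 1.60) and Muc20 rose in fl/fl organoids (1.32, adjusted p = 1.02e-04, edgeR) and was at 0.53 in ΔIEC organoids (adjusted p = 0.0991). Muc2, the gel-forming mucin of goblet cells and the 1 secreted mucin tested of 5, rose from 75.4 to 147 CPM in fl/fl and from 40.6 to 89.0 CPM in ΔIEC organoids. Of 27 tested enzymes of mucin-type O-glycans, 13 were called higher and 1 lower in fl/fl, and 11 and 1 in ΔIEC organoids, with medians of 0.53 and 0.35. This list was chosen with earlier results known, so the counts describe it and do not test it. Over all genes tested, 10.6% were called higher and 10.2% lower in fl/fl, and 9.83% and 7.65% in ΔIEC organoids. B3galt5, which makes type 1 chains, the acceptor preferred by Fut2, had the largest rise, from 2.14 to 440.4 CPM and from 2.13 to 472 CPM (7.55 and 7.82). The sulfotransferase Chst4 rose by 3.00 and 2.75, the core-branching enzyme Gcnt3 by 1.12 and 1.28, and the galactosyltransferase B4galt1 by 0.78 and 1.07. Between genotypes, 7 of the 27 were called lower in ΔIEC organoids untreated and 9 with IL-22, none higher, beside 5.98% and 9.84% of all genes tested called lower.

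**Figure D5:**
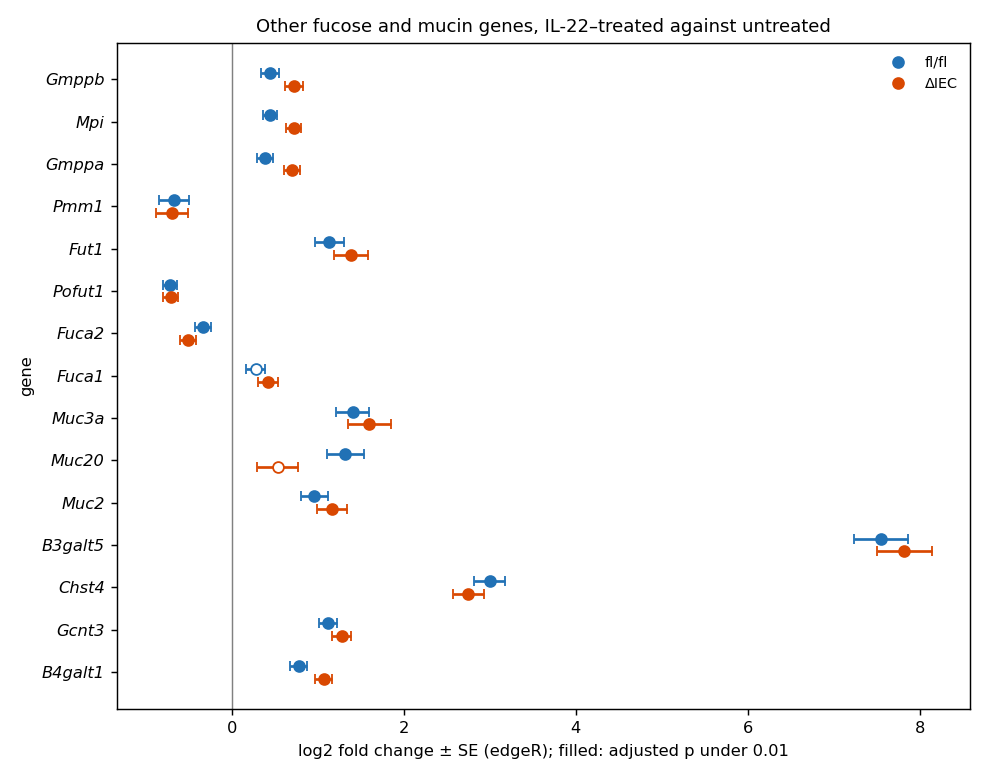
Log2 fold change with IL-22 (x axis) in fl/fl and ΔIEC organoids for 15 other genes of the fucose, mucin and O-glycan lists (y axis), with bars of 1 SE to either side. Filled points passed the threshold (adjusted p under 0.01, edgeR). Drawn are genes called with IL-22 in at least 1 genotype, at most 4 per list by size of change. The list genes Pmm2, Tsta3, Fuk, Fpgt and B3gnt7, also named in the text, are not drawn. B3galt5 (7.55 and 7.82) and Chst4 (3.00 and 2.75) lie farthest to the right, and Pmm1, Pofut1 and Fuca2 lie left of 0 in both genotypes.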

How the data were processed

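RNA from the 16 organoid cultures was sequenced, and the authors' processing notes name cutadapt, TopHat2, HTSeq and the genome build GRCm38 (mm10). The deposited values are whole-number HTSeq counts of reads for each gene, without normalization. Tool versions, annotation release and strand setting of the counting are not given in the sources used here. The paper names a stranded library protocol, whereas the labels name another kit. The 5 HTSeq summary lines were left out, and 36.3% to 38.3% of the tabulated reads lay on genes. Of 49585 identifiers, 49326 matched a symbol and position in the GENCODE annotation of GRCm38 without the version.

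Counts were tested in R 4.3.3 with edgeR 4.0.16 (filterByExpr, TMM scaling, 1 quasi-likelihood fit with a mean for each of the 4 groups), two-sided, with Benjamini-Hochberg adjustment over all 12559 genes and a threshold of 0.01. SE is the size of the log2 fold change over the root of its F statistic. It can understate the uncertainty where a group has few counts, as for Fut2 without IL-22. CPM were taken relative to the counts on genes scaled by the TMM factors, and exact intervals cover counting error only. Exact permutation tests, 4 cultures against 4, cannot go below p = 0.0286. The IL-22 comparison in fl/fl organoids was also run on simulated counts of independent cultures. These had no line effect, so that run cannot vouch for p-values where cultures of a line correlate.

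Cultures of a line deviated together (correlation across genes of deviations from group means 0.26 to 0.44 in fl/fl and 0.06 to 0.32 in ΔIEC), so the line numbers of the labels pair treated with untreated cultures. Between lines the correlation was -0.43 to -0.22 and -0.35 to -0.08. Deviations from a group mean cancel within the group, so these negative values follow from the positive ones and are no separate check. Lines are nested in genotype and could be a block only for IL-22 effects and their difference. Alternatives were DESeq2 1.42.0, limma 3.58.1 (voom with correlation within lines, 0.261), RLE scaling, other filters, only the compared groups, summed cultures of a line, a threshold of 0.05, and leaving out each culture and line. The 9 genes and all lists were chosen with earlier results of these data known. Beyond the 9 genes, the text names at most 4 called genes per list by size of change, other list genes chosen after their values were seen (Pmm2, Tsta3, Fuk, Fpgt), and the 3 nearest profiles per called gene. Promoter windows are from RefSeq, GRCm38.p6.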

Additional observations from a re-analysis of the deposited data

How the results depend on the processing

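The 6 genes called with IL-22 in each genotype were between 4 and 6 in fl/fl and between 5 and 7 in ΔIEC organoids under the alternatives (with the cultures of a line summed, Muc4 lost its call in both genotypes and Slc35c1 in fl/fl organoids, and with at least 10 counts in every culture Fut2 was not tested), and 0 genes were called for the difference of the IL-22 effects in any setting. With organoid line as a replicate block, 6 were called in fl/fl and 7 in ΔIEC organoids, where Fut8 was added, and no other call changed. The genotype counts were less stable. With the cultures of a line summed, 0 of the 3 untreated and 1 of the 5 treated calls were left, and with only the compared groups 3 treated calls were left. Leaving out 1 culture or line gave 1 to 3 untreated and 3 to 5 treated calls. Of the other list genes named, Mpi, Gmppa and Gmppb lost the fl/fl call with the cultures of a line summed, Pmm1, Fut1, Fuca2 and Muc2 both IL-22 calls, and Fuca1 that in ΔIEC organoids. Signs turned for small effects only when cultures or lines were left out: Fut4 with IL-22 in fl/fl (-0.11 to 0.070) and ΔIEC organoids (-0.056 to 0.16), the difference of IL-22 effects for Fut4 (-0.036 to 0.18), Fut8 (-0.0051 to 0.14), Gmds (-0.083 to 0.060) and Muc3 (-0.17 to 0.083), and untreated Muc4 between genotypes (-0.17 to 0.32), all on the log2 scale. Of the single-gene settings over the 8 tested genes, 761 kept direction and side of the threshold, 42 lost the call, 5 gained it and 32 changed sign. With exact permutation tests, 23 of 32 comparisons were at the smallest p the design allows, also with a prior count of 0.5. That p is the one of groups without overlap. Of all genes tested, 15.4% in fl/fl and 14.1% in ΔIEC organoids were higher with IL-22 without overlap. Between genotypes, 23.3% untreated and 29.6% treated did not overlap in either direction. The comparisons share cultures, so the count is not one of independent tests. Depth limits Fut2 and Muc1 in untreated organoids.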

Other observations

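Genes with the most similar profiles were found for the 6 genes called with IL-22, as the smallest root mean square difference (RMS) of log2 CPM over the 16 cultures, each gene centered on its mean, among 9700 genes with a mean of at least 10 CPM. For Fut2 these were Lrg1 (RMS 0.604), a secreted leucine-rich glycoprotein, Lcn2 (0.676), the iron-scavenging lipocalin, and B3galt5 (0.814), all near 0 without IL-22. The log2 CPM carry a prior count of 2, which draws levels near 0 together. In edgeR the log2 fold changes with IL-22 (fl/fl and ΔIEC) were 10.8 and 10.48 for Lrg1 and 8.31 and 8.54 for Lcn2. They were 7.55 and 7.82 for B3galt5, beside 6.34 and 8.30 for Fut2. Lrg1 was at 0 CPM in untreated fl/fl and 0.0590 CPM in untreated ΔIEC organoids, and at 64.6 ± 10.7 and 159.7 ± 41.9 CPM with IL-22 (SD, n = 4). Lcn2 went from 0.137 to 59.5 ± 12.6 CPM and from 0.123 to 69.4 ± 13.1 CPM.

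For Gmds the nearest were Apaf1 (0.129), the adaptor of the apoptosome, Gm20412 (0.151) and Kcne3 (0.163), a potassium channel subunit. For Slc35c1 they were Copg1 (0.0773), a subunit of the COPI coat, Jpt1 (0.0810) and Gm4673 (0.0823). Muc13 was nearest to Casp8 (0.104), the initiator caspase, its own antisense neighbor Gm15657 (0.108) and Tmem150b (0.136). Exons of Muc13 and Gm15657 overlap, and their reads may be mixed. Muc3 was nearest to the glycan-branching enzyme Gcnt3 (0.161), the kinase Frk (0.196) and Chd9 (0.197), and Muc4 to Egfr (0.188), Map7d1 (0.189) and the glycosyltransferase B3gnt7 (0.194). Gcnt3 shared with Muc3 the order of the 4 groups, at 204 ± 20.7 and 444 ± 13.2 CPM in untreated and treated fl/fl and 120.2 ± 21.7 and 289 ± 28.2 CPM in ΔIEC organoids. With profiles over the 4 group means in place of the cultures, 6 of the 18 genes were again among the nearest 3, and for Fut2 all 3 were.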
